A study of Arabidopsis thaliana with 60 samples.

Results

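Group IIb is one branch of the WRKY transcription factor family of Arabidopsis thaliana. The 7 members examined here were taken by gene identifier: WRKY6 (AT1G62300), WRKY31 (AT4G22070), WRKY42 (AT4G04450), WRKY47 (AT4G01720), WRKY61 (AT1G18860), WRKY72 (AT5G15130) and WRKY9 (AT1G68150). All 7 had a row among the 25036 genes of the count table, and 6 passed the filter on low counts that left 16763 genes for testing. WRKY61, with 35 counts in all 60 libraries, was not tested. WRKY31, WRKY72 and WRKY9 passed the filter through the treated groups in which they were high and were at or near 0 elsewhere. WRKY42 passed through treated groups too, and outside them it was low in all but single libraries. The number of members called below therefore describes the members and supports nothing further.

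WRKY proteins bind the W box, a short DNA element with the core TTGAC, through a conserved domain that ends in a zinc finger. They form one of the large families of plant transcription factors, and many members are switched on within the first hours of an immune response. Group IIb is the branch closest to group IIa, which holds the defence regulators WRKY18, WRKY40 and WRKY60. Within group IIb, WRKY6 is known from senescence, defence and phosphate transport, WRKY42 from phosphate transport, WRKY47 from the response to boron, WRKY72 from basal defence against nematodes and oomycetes, and WRKY9 from suberin formation in roots.

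All plants were 4 weeks old, of the Col-0 ecotype and the genotype dde2 ein2 pad4 sid2 Ed-AvrRpt2, so every library came from leaves that lack normal jasmonate synthesis (dde2), ethylene signalling (ein2), the lipase-like defence regulator PAD4 and salicylic acid synthesis (sid2). The transgene makes the bacterial effector AvrRpt2 once estradiol (Ed) is given, and no line without it, and no wild type, was among the samples. Leaves were infiltrated with Mock (0.1% ethanol), flg22 (1 µM), Ed (10 µM in 0.1% ethanol) or flg22+Ed (both, in 0.1% ethanol) and were taken 60, 120, 180 or 300 min later. Leaves labelled 0 min were untouched. No ethanol is listed for flg22 alone, so flg22 leaves may differ from the other 3 treatments in that respect too. Each of the 20 groups of treatment and time held 3 libraries, 1 from each of 3 independent experiments, and each library pooled leaves of 2 plants. flg22 is a flagellin peptide that sets off pattern-triggered immunity, and AvrRpt2 sets off effector-triggered immunity through the receptor RPS2.

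The start regions of the members are shown because WRKY proteins act through the W box, their own genes among the reported targets of the family. For each gene the 300 bases from 250 before to 50 after the annotated start were read from the RefSeq TAIR10.1 assembly and searched on both strands for the W-box core TTGAC. It was found in 6 of the 7 windows, and in 50.6% of the windows of 24877 genes in the table. WRKY42, WRKY72 and WRKY9 held 2 copies each, as 17.9% of all windows held 2 or more, and no copy was found in the window of WRKY31. The longer TTGACC was found in WRKY72 (14.3% of all windows) and TTGACT in WRKY61 and WRKY9 (21.9%), each overlapping with a core copy, and the WT box GGACTTTC in none of the 7 (0.482% of all). These matches are letters in a window and were not tested as sites.

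The 250 bases before the start are printed 5′ to 3′ on the strand of the gene for 5 members. WRKY6 and WRKY47 were called first with flg22, and WRKY72 had no counts in Mock leaves. WRKY31 and WRKY42 were highest with flg22 and Ed together. Capitals mark the W-box core in either direction (TTGAC or GTCAA). The intervals are chr1:23019495-23019744 for WRKY6 (minus strand), chr4:744554-744803 for WRKY47 (plus), chr5:4904040-4904289 for WRKY72 (plus), chr4:11694591-11694840 for WRKY31 (minus) and chr4:2217792-2218041 for WRKY42 (plus), all TAIR10.1.
WRKY6: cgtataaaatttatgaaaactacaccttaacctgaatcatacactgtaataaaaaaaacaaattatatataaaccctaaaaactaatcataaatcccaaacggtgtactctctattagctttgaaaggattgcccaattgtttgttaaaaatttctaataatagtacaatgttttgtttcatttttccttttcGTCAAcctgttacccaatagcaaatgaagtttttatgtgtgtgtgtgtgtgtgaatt
WRKY47: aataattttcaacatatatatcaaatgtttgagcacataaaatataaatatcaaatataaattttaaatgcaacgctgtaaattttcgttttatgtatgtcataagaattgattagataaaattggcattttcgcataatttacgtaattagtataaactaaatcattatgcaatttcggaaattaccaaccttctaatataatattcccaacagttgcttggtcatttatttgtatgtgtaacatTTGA
WRKY72: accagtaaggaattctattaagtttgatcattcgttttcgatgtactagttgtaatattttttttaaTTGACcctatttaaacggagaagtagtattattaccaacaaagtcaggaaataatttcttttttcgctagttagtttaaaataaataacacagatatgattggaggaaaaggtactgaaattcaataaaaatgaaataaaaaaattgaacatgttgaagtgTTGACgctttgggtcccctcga
WRKY31: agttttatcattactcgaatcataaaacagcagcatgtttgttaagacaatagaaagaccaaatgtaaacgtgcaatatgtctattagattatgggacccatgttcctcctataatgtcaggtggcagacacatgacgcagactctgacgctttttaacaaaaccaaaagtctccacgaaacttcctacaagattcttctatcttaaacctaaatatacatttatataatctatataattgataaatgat
WRKY42: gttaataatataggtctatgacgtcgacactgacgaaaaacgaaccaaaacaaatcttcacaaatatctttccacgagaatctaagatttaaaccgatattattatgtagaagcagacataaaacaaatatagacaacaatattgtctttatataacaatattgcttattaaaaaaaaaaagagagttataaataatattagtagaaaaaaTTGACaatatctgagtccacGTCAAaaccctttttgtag
WRKY6 had its copy 57 bases before the start, in reverse. The copy of WRKY47 began 4 bases before the start and ended on the first transcribed base. Those of WRKY72 began 183 and 22 bases before the start, and those of WRKY42 39 and 19 bases before it. Within their windows WRKY31 and WRKY42 shared a run of 16 identical bases, caaaaccctttttgta. In WRKY31 it lay at +35 to +50, past the printed bases and up to the end of the window, so it may be longer. In WRKY42 it lay at -17 to -2, where it began inside the reverse copy of the core. The longest run in any other of the 21 pairs of members was 10 bases.

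Transcripts were counted by Smart-3SEQ, which sequences the 3′ ends of RNA. Library totals lay between 1.46 and 4.67 M counts, and 3 counts stood for 0.604 to 2.20 CPM (counts scaled to a common library total), depending on the library. Levels below are CPM on scaled library totals and are compared only within a gene. The 4 mesophyll markers (genes of the Rubisco small subunit, Rubisco activase and a pair of light-harvesting proteins) summed to between 5180 and 38339 CPM, whereas the root markers PYK10 and IRT1 had 2 and 37 counts in all 60 libraries. At 300 min all 4 mesophyll markers fell against Mock in flg22 and in flg22+Ed leaves, with median log2 fold changes of -1.25 and -2.53, and 2 of 4 fell in Ed leaves. Of 2 epidermis markers 1 fell with flg22, 1 with Ed and 2 with both, at medians of -1.40, -1.05 and -1.82, and 0 of 3 guard cell markers and 0 of 1 phloem marker were called in these comparisons. Of all genes 20.9, 9.46 and 30.5% were called lower than Mock at 300 min with flg22, Ed and both. The part of these markers in the changes of the WRKY genes was not tested, and in whole leaves fewer cells of a type and less RNA per cell cannot be told apart. The libraries of experiment 2 labelled Mock 0, Mock 60, Mock 300 and flg22 0 min stood apart on the clock gene LHY. The one labelled Mock 300 min had 316 CPM of LHY, where the other Mock 300 min libraries had 1.54 and 3.07, and the one labelled flg22 0 min had 4.65, where the 10 untouched libraries that do not stand apart had 252 to 391. The labels were kept, and the comparisons with Mock at 60 and 300 min and with untouched leaves are also given without these 4 libraries.

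**Figure D1:**
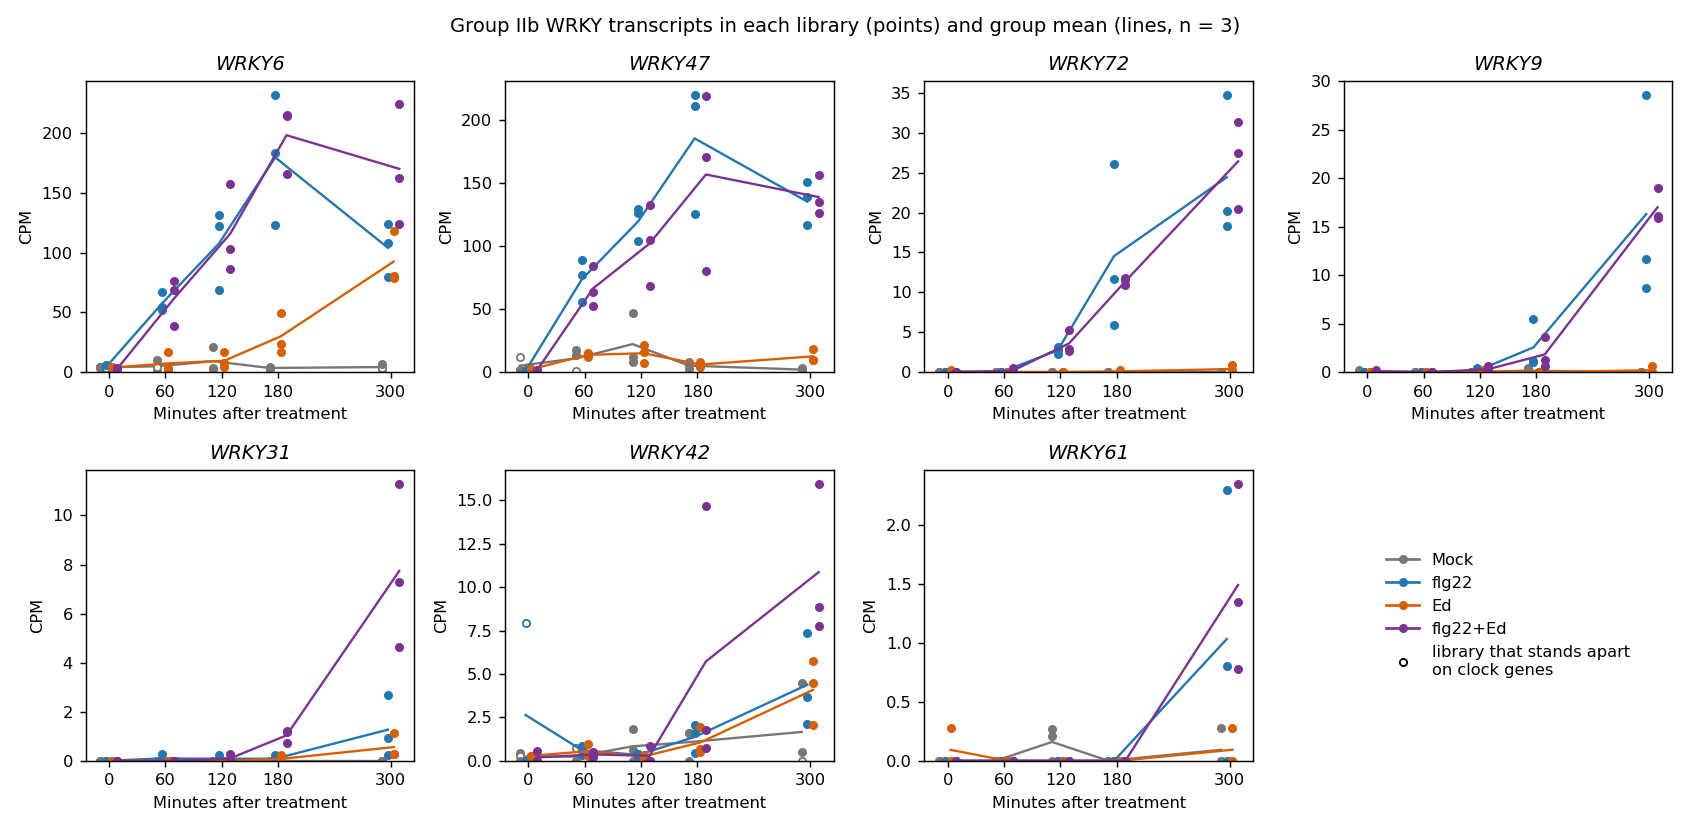
Level of each group IIb gene in CPM (vertical axis, own scale per gene) against minutes after treatment, with 1 point per library, a line through the group means of 3 libraries and a colour per treatment; open points are the 4 libraries that stand apart on LHY. WRKY6 and WRKY47 were above all Mock libraries from 60 min on with flg22, WRKY72 from 120 min, and WRKY31 was highest in leaves given flg22+Ed for 300 min.

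With flg22, 5 of the 6 tested members were called higher than Mock by 300 min, and they were first called at different times. WRKY6 and WRKY47 were called from 60 min, WRKY72 from 120 min, WRKY9 from 180 min and WRKY31 at 300 min. WRKY42 did not pass the test. No test compared these times between genes. For WRKY31, with 15 counts in flg22 leaves at 300 min, a late rise and low depth cannot be told apart. The number of members called higher than Mock was 2, 3, 4 and 5 at 60, 120, 180 and 300 min. Over all tested genes, 6.45, 7.43, 14 and 19.2% were called higher at those times. Calls are from edgeR's quasi-likelihood test at an adjusted p under 0.05, and the error after a log2 fold change is worked back from its F statistic.

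WRKY6 was present in untouched leaves, at a median of 3.64 CPM in 12 libraries (2.4 to 6.14). In Mock leaves at 60 min it had 0.845, 3.96 and 9.80 CPM in experiments 1 to 3, and in flg22 leaves 54.4, 52.0 and 67.3. All flg22 libraries were above all Mock libraries, a rise of 3.67 ± 0.63 on the log2 scale (adjusted p = 0.00016). With flg22 the mean went on to 108 ± 33.7 CPM at 120 min, 179.8 ± 54.4 at 180 min and 104 ± 22.4 at 300 min (SD, n = 3 each). The largest difference from Mock was at 180 min, where flg22 libraries had 124, 232 and 184 CPM and Mock libraries 3.70, 2.21 and 4.38, without overlap. That rise was 5.76 ± 0.67 (adjusted p = 9.08e-09), and it was 4.71 ± 0.65 at 300 min (adjusted p = 1.92e-07).

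WRKY47 followed a like course in flg22 leaves, with means of 73.5 ± 16.8, 119.6 ± 13.9, 185 ± 52.3 and 135 ± 17.2 CPM at 60, 120, 180 and 300 min. At 60 min the flg22 libraries had 88.5, 55.4 and 76.6 CPM and the Mock libraries 13.8, 1.08 and 17.7, without overlap. The rise was 2.77 ± 0.57 on the log2 scale (adjusted p = 0.00124), and 2.25 ± 0.50 without the libraries that stand apart, the value of 1.08 CPM among them (adjusted p = 0.00455). Mock leaves also carried WRKY47, up to 46.5 CPM in 1 library at 120 min, so its rise against Mock was 2.49 ± 0.55 at 120 min (adjusted p = 0.00167) before it reached 5.16 ± 0.63 by 180 min (adjusted p = 2.69e-08). At 300 min Mock had 0.838, 1.48 and 3.58 CPM and flg22 116, 150.4 and 139, a rise of 6.24 ± 0.71 (adjusted p = 3.34e-09). In fits that held only the groups compared, the 60 min rises of WRKY6 and WRKY47 missed the threshold (adjusted p = 0.0899 and 0.156). Without experiment 1, which left 2 libraries a group, the calls of WRKY6 at 60 min and of WRKY47 at 60 and 120 min were lost as well (adjusted p = 0.0526, 0.0581 and 0.198).

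WRKY72 and WRKY9 were at or near 0 in untouched and Mock leaves and came on late. WRKY72 had 0 counts in all 15 libraries labelled Mock and in the flg22 libraries at 60 min. At 120 min flg22 libraries had 2.74, 3.11 and 2.33 CPM, at 180 min 5.89, 11.7 and 26.0, and at 300 min 18.4, 20.2 and 34.8. Every flg22 library from 120 min on was therefore above every Mock library. Against a floor of 3 counts over the Mock group, the pooled WRKY72 level was 9.41-fold the floor at 120 min (adjusted p = 0.00179). It was 49.9-fold at 180 min (adjusted p = 3.48e-07) and 70.8-fold at 300 min (adjusted p = 5.88e-08). Such folds leave out the error of the treated counts and are not lower limits. The WRKY72 call at 120 min was lost without experiment 1 or 2 (adjusted p = 0.107 and 0.104).

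WRKY9 had 1.18, 1.02 and 5.47 CPM in flg22 leaves at 180 min, and 0.463, 0 and 0 in Mock leaves. The groups did not overlap and the rise was called (adjusted p = 0.0155). The ratio was 12.8 from 26 against 2 counts, with a counting interval of 3.21 to 111 (95%). Such intervals pool the libraries of a group and leave out the spread between them. The call was lost without the flg22 library of experiment 3, the highest of the group, or without the Mock library of experiment 2 (adjusted p up to 0.159). At 300 min flg22 libraries had 8.65, 11.7 and 28.6 CPM against 0 counts in Mock, pooled to 46.3-fold the Mock floor (adjusted p = 1.99e-06). Experiment 3 gave the highest WRKY72 and WRKY9 value of the flg22 group at both 180 and 300 min.

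WRKY31, WRKY42 and WRKY61 stayed low with flg22 alone. WRKY31 had 0.216, 0.917 and 2.67 CPM at 300 min, from 1, 4 and 10 counts, against 0 in Mock. The library of experiment 1 lay below the Mock floor of 0.336 CPM. The pooled level was 3.50-fold that floor, and the rise was called (adjusted p = 0.00821). That call was lost with DESeq2 (adjusted p = 0.153), in a fit of only the groups compared (adjusted p = 0.0768) and without the flg22 library of experiment 3 (adjusted p = 0.0522). WRKY42 had 3.67, 7.34 and 2.14 CPM with flg22 and 4.47, 0 and 0.512 with Mock at 300 min, groups that overlapped (log2 difference 1.26 ± 0.88, adjusted p = 0.263; limma-voom 0.0413). WRKY61 had 0, 2.29 and 0.802 CPM with flg22 at 300 min, from 13 counts in all, and 0.279, 0 and 0 with Mock.

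With Ed alone WRKY6 was called above Mock from 180 min and WRKY47 at 300 min, and no other member passed the test. WRKY6 had 49.6, 23.6 and 16.8 CPM in Ed leaves at 180 min and 3.70, 2.21 and 4.38 in Mock leaves, a rise of 3.18 ± 0.63 on the log2 scale (adjusted p = 0.000743). At 300 min it had 118, 78.6 and 80.6 CPM against 2.23, 3.25 and 7.16, a rise of 4.54 ± 0.64 (adjusted p = 7.39e-07). The groups did not overlap at either time, whereas they did at 60 and 120 min. WRKY47 rose at 300 min only among the 4 times, with 18, 9.64 and 9.89 CPM against 0.838, 1.48 and 3.58, a log2 fold change of 2.80 ± 0.71 (adjusted p = 0.00261). Without experiment 1 the calls of WRKY6 at 180 min (2.71, adjusted p = 0.253) and of WRKY47 at 300 min (2.02, adjusted p = 0.157) were lost, and that of WRKY6 at 300 min was not (3.98, adjusted p = 0.00334).

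The number of members called higher with Ed was 0, 0, 1 and 2 of 6 at the 4 times. Over all genes, 0.00597, 0.0835, 4.03 and 14.7% were called higher. At 60 and 120 min no member reached an unadjusted p under 0.05 in edgeR, and DESeq2, which gave an adjusted p for 2 of 6 members at 120 min, and limma-voom called 0 as well. WRKY72 had 4 counts and WRKY9 2 counts in the 3 Ed libraries at 300 min. WRKY31 had 1.12, 0.260 and 0.291 CPM, from 6 counts, with no overlap with the zeros of Mock, and did not pass (adjusted p = 0.0835; limma-voom 0.0490). WRKY42 had 4.49, 5.73 and 2.04 CPM at 300 min, overlapping with Mock (adjusted p = 0.374). Without the experiment 1 Mock library at 300 min, which had 4.47 CPM of WRKY42, both flg22 and Ed were called higher than Mock for this gene (adjusted p = 0.0236 and 0.0424).

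The difference between the elicitors was tested directly, and it depended on the gene. WRKY47 and WRKY72 were lower in Ed than in flg22 leaves at 300 min, by -3.43 ± 0.57 and -5.90 ± 0.66 on the log2 scale (adjusted p = 1.46e-05 and 3.21e-07), in all 3 experiments each. WRKY9 was lower too, at a ratio of 0.0119 from 2 against 198 counts, with a counting interval of 0.00143 to 0.0434 (adjusted p = 7.97e-06). WRKY6 was lower in Ed leaves at 60, 120 and 180 min, by -2.97 ± 0.59, -3.47 ± 0.58 and -2.59 ± 0.54 (adjusted p = 0.0021, 4.95e-05 and 0.000693). The 60 min differences of WRKY6 and WRKY47 were lost without the Ed library of experiment 1 (adjusted p = 0.0526 and 0.0714), and that of WRKY47 also without that of experiment 2 (adjusted p = 0.0504). With a whole experiment left out, WRKY6 missed the threshold at 60 min without experiment 1 or 2 (adjusted p = 0.245 and 0.0618) and at 180 min without experiment 2 (adjusted p = 0.0534), and WRKY47 at 60 min without experiment 1 or 3 (adjusted p = 0.317 and 0.0628). At 300 min the WRKY6 libraries of the 2 treatments overlapped, with 118, 78.6 and 80.6 CPM in Ed and 80.0, 124 and 108 in flg22 leaves, and the difference was -0.17 ± 0.51 (adjusted p = 0.873). Altogether 2, 3, 4 and 3 members were called lower in Ed than in flg22 leaves at the 4 times. Among them WRKY72 at 120 min was lost without experiment 1 or 2 (adjusted p = 0.0618 and 0.0831) and WRKY9 at 180 min without experiment 3 (adjusted p = 0.182). Of all genes, 2.62, 5.83, 7.3 and 7.5% were called lower.

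**Figure D2:**
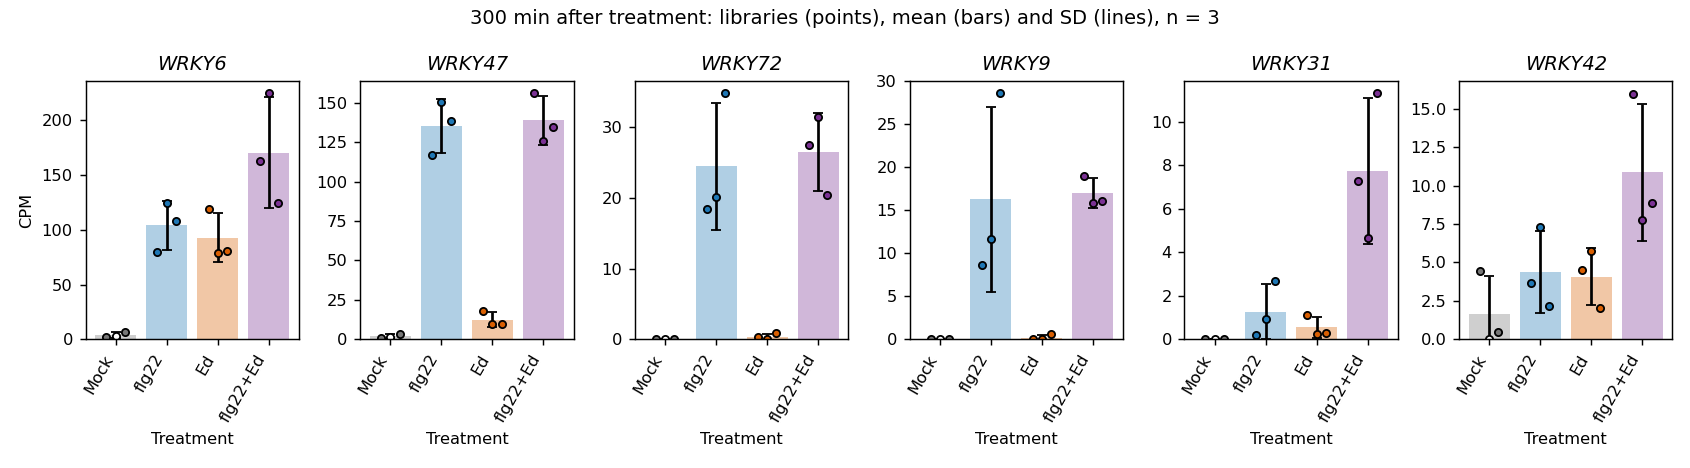
Level of the 6 tested genes in CPM (vertical axis from 0, own scale per gene) 300 min after each of the 4 treatments; points are libraries, bars are means and lines are the SD of 3 libraries. WRKY6 was high after flg22 and after Ed, WRKY47, WRKY72 and WRKY9 were high wherever flg22 was given, and WRKY31 had 7.74 CPM with both against 1.27 with flg22 and 0.558 with Ed.

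With flg22 and Ed together, all 6 tested members were called higher than Mock at 300 min. The call of WRKY42 was lost without the experiment 2 Mock library or without experiment 3. The counts of members called higher than Mock were 2, 3, 4 and 6 of 6 at 60, 120, 180 and 300 min, where 4.75, 9.97, 18 and 27.9% of all genes were called higher. In fits of only the groups compared, WRKY6 at 60 min and WRKY47 at 60 and 120 min missed the threshold (adjusted p = 0.131, 0.222 and 0.0581), and so did WRKY47 at 60 min without the experiment 2 library labelled Mock 60 min (adjusted p = 0.0513). Without experiment 1 WRKY47 was lost at 60 and 120 min (adjusted p = 0.0514 and 0.0704). WRKY6 had 162, 224 and 124 CPM at 300 min, WRKY47 156, 126 and 135, WRKY72 27.5, 31.4 and 20.4, and WRKY9 19.0, 15.9 and 16.1. All these libraries were above all Mock libraries. The log2 rise was 5.42 ± 0.66 for WRKY6 (adjusted p = 3.42e-09) and 6.27 ± 0.71 for WRKY47 (adjusted p = 6.74e-10). WRKY72 and WRKY9 were at 77.2-fold and 51.3-fold the Mock floor (adjusted p = 9.8e-09 and 4.51e-07). WRKY61 had 2.35, 0.774 and 1.35 CPM from 17 counts against 1 count in Mock, a ratio of 14.4 with a counting interval of 2.25 to 600.2. In a fit with no filter this passed (adjusted p = 0.0302). That was the only fit that tested WRKY61, so the call was not checked with another tool or with libraries left out.

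WRKY31 stood out in leaves given both. It had 7.28, 4.65 and 11.3 CPM at 300 min (31, 12 and 42 counts), 0.216, 0.917 and 2.67 with flg22, 1.12, 0.260 and 0.291 with Ed, and 0 counts in Mock. The libraries given both were above all others in each experiment and did not overlap with either single treatment. The group was at 23.9-fold the Mock floor (adjusted p = 3.78e-06). The log2 difference was 2.65 ± 0.60 from flg22 (adjusted p = 0.00402) and 3.73 ± 0.69 from Ed (adjusted p = 0.0002). The difference from flg22 was the 1 member call in that comparison, where 0, 0.00597, 0.483 and 6.81% of all genes were called higher at the 4 times. At 60 and 120 min 0 members were called by edgeR, DESeq2 or limma-voom, and none had an unadjusted p under 0.05. At 180 min edgeR and DESeq2 called 0, limma-voom called 1 and 1 had an unadjusted p under 0.05. DESeq2 gave nearly the same log2 differences, 2.65 and 3.83, and neither passed there (adjusted p = 0.462 and 0.176). Without experiment 1 the difference from flg22 was 2.172 (adjusted p = 0.142). At 180 min the flg22+Ed leaves already held 1.17, 0.734 and 1.20 CPM of WRKY31, from 4, 1 and 5 counts. The pooled level was 4.15-fold the Mock floor (adjusted p = 0.0101, DESeq2 0.181). That call of WRKY31 was lost without any 1 of the 3 experiments (adjusted p = 0.0575 to 0.0914).

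WRKY42 had 16.0, 7.74 and 8.88 CPM with both at 300 min. These were above the flg22 range of 2.14 to 7.34, the Ed range of 2.04 to 5.73 and the Mock range of 0 to 4.47. The experiment 2 library labelled flg22 0 min, which stands apart on LHY, had 7.92 CPM, above the lowest library given both. The difference from Mock passed, at 2.57 ± 0.85 on the log2 scale (adjusted p = 0.00862). It was 1.95 ± 0.75 without the 4 libraries that stand apart (adjusted p = 0.0233), and it was lost when the experiment 2 library with the label Mock 300 min, which had 0 counts, was left out alone (adjusted p = 0.0597) or without experiment 3 (adjusted p = 0.0511). Without the experiment 1 Mock library, the one with 4.47 CPM, the WRKY42 difference was 5.59 (adjusted p = 0.000808), so its size rests on single Mock libraries. The differences from flg22 and Ed were 1.31 ± 0.74 and 1.41 ± 0.75 and did not pass (adjusted p = 0.249 and 0.146), though in fits of only the groups compared both did (adjusted p = 0.0416 and 0.0164). At 180 min 1 library of the group, of experiment 2, had 14.7 CPM of WRKY42, and the others had 1.76 and 0.720.

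Apart from WRKY31, no member raised by flg22 differed past the threshold when Ed was added. At 300 min the difference between flg22+Ed and flg22 leaves was 0.71 ± 0.51 for WRKY6, 0.04 ± 0.50 for WRKY47, 0.11 ± 0.42 for WRKY72 and 0.07 ± 0.52 for WRKY9 (adjusted p = 0.39, 0.974, 0.897 and 0.953). WRKY6 was higher with both in all 3 experiments, although the groups overlapped. In a fit of only the groups compared that difference was 0.74 and passed (adjusted p = 0.0452). flg22 added to Ed, in turn, raised 2, 3, 4 and 4 members at the 4 times, where 1.55, 6.1, 9.69 and 14.6% of all genes were called higher. At 300 min these were WRKY47, WRKY72, WRKY9 and WRKY31. WRKY6 was not among them, with a difference of 0.88 ± 0.51 (adjusted p = 0.188; 0.0174 in a fit of only the groups compared) between groups that did not overlap. The calls at 60 min and that of WRKY9 at 180 min were each lost when 1 of several libraries was left out (adjusted p up to 0.161 for WRKY47, 0.0637 for WRKY6 and 0.0827 for WRKY9), and that of WRKY9 also in a fit of only the groups compared (adjusted p = 0.0537).

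The interaction term asks whether the log2 effects of flg22 and Ed add up, as (flg22+Ed minus flg22) minus (Ed minus Mock). For WRKY6 at 300 min it was -3.84 ± 0.81 (adjusted p = 0.00594), negative in each of the 3 experiments, since Ed made a log2 difference of 4.54 without flg22 and 0.71 with it. Without experiment 1 it was -3.40 and without experiment 2 -3.92, and neither passed (adjusted p = 0.469 and 0.132). At 180 min it was -3.04 ± 0.81 (adjusted p = 0.17; 0.0214 in a fit of only the 4 groups). WRKY6 at 300 min was the 1 member called, where 0, 0, 0.00597 and 1.43% of all genes were called negative at the 4 times. WRKY47 had -2.77 ± 0.88 at 300 min (adjusted p = 0.107), negative in 3 experiments, and in a fit of only the 4 groups it passed (adjusted p = 0.00512). WRKY31 had -1.35 ± 1.25 (adjusted p = 0.78) and WRKY42 0.15 ± 1.25 (adjusted p = 0.989), so for neither was a departure from addition on the log2 scale detectable. WRKY31 had 0 counts in Mock, and its term taken within each experiment on log2 CPM was positive in all 3, opposite in sign to the fitted value.

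**Figure D3:**
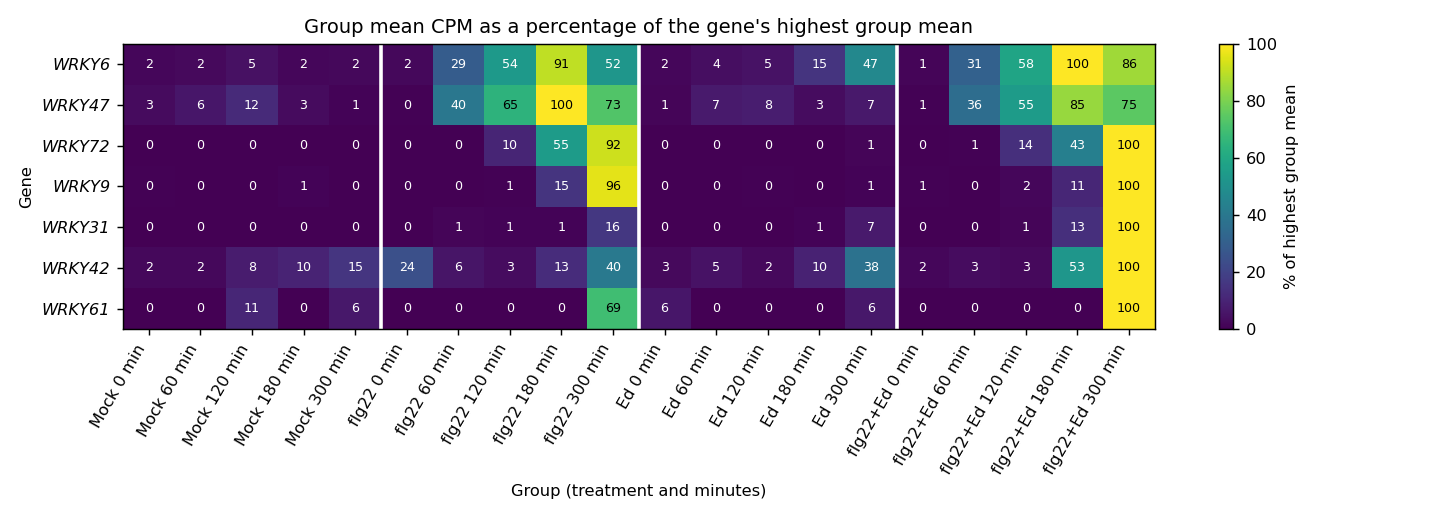
Group mean of each group IIb gene as a percentage of that gene's highest group mean (colour and printed value), with the 20 groups of treatment and minutes in columns. With Ed at 300 min WRKY6 reached 46.6% of its highest mean, WRKY47 6.75% and WRKY72 1.45%.

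The levels of each gene can be put in order over the 20 groups. For WRKY6 the highest mean was in flg22+Ed leaves at 180 min (198 ± 28.5 CPM), followed by flg22 at 180 min, flg22+Ed at 300 min, flg22+Ed at 120 min, flg22 at 120 min, flg22 at 300 min and Ed at 300 min. Each of these overlapped with the next in the range of its libraries. Ed at 300 min did not overlap with flg22+Ed at 60 min, the next in order, which reached 76.5 CPM. The libraries of flg22 at 120 min went down to 69.1 CPM, however, so the groups named were not set apart from those below. For WRKY47 the first gap came below the 8 groups given flg22, with or without Ed, at 60 min or later, and Mock at 120 min followed (22.21 ± 21.1 CPM). For WRKY72 the 4 highest groups were those with flg22 at 180 and 300 min, with a gap below them. For WRKY9 the gap came below the 2 groups with flg22 at 300 min, and for WRKY31 below flg22+Ed at 300 min alone. For WRKY42 no such gap was found among the 10 highest groups.

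Over time in treated leaves, 6 steps from one time to the next were called, all of WRKY72, WRKY9 and WRKY31, and each of the 6 was lost without experiment 1 (adjusted p = 0.0723 to 0.329). WRKY6 passed from 60 to 120 min of flg22 in a fit of only the groups compared (0.91, adjusted p = 0.0423). In flg22 leaves WRKY72 rose from 60 to 120 min, to 7.26-fold the floor of the 60 min group (adjusted p = 0.00428). It rose from 120 to 180 min by 2.38 ± 0.52 on the log2 scale (adjusted p = 0.0194), and WRKY9 rose from 180 to 300 min by 2.72 ± 0.61 (adjusted p = 0.0176). The last of these was not called by DESeq2 (adjusted p = 0.207), and both log2 steps were lost when any of several single libraries was left out (adjusted p up to 0.224 and 0.17). In flg22+Ed leaves WRKY72 rose from 60 to 120 min, from 1 count to 34, a ratio of 32.9 with a counting interval of 5.53 to 1339 (adjusted p = 0.00286). There WRKY9 rose from 180 to 300 min by 3.53 ± 0.69 (adjusted p = 0.000788) and WRKY31 by 2.79 ± 0.65 (adjusted p = 0.00462; DESeq2 0.414). Of all genes, 5.58, 0.632 and 0.787% were called higher in the 3 successive steps of flg22 leaves, and 6.34, 1.01 and 5.95% in those of flg22+Ed leaves.

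In Ed leaves no member passed in any of the 3 steps with edgeR on all libraries, where 3.06, 0.346 and 4.21% of all genes were called higher. At an unadjusted p under 0.05 there were 0, 2 and 2 members, DESeq2 called 0 and limma-voom called 0, 0 and 1. The step of WRKY6 from 180 to 300 min in Ed leaves was 1.63 ± 0.53 (adjusted p = 0.059), and it was called with the experiment as a block (1.59, adjusted p = 0.0425), with limma-voom, in a fit of only the groups compared and without the 4 libraries that stand apart (adjusted p = 0.0058, 0.0439 and 0.0336). The step of WRKY72 over the same time in flg22+Ed leaves was 1.21 (adjusted p = 0.0654). It was called with the block (1.26, adjusted p = 0.036), with library totals alone, with limma-voom, in a fit of only the groups compared and without the 4 libraries (adjusted p = 0.0482, 0.00376, 0.0151 and 0.0413). Without the 4 libraries the steps from 120 to 180 min of WRKY9 in flg22 leaves and of WRKY42 and WRKY72 in flg22+Ed leaves passed as well (adjusted p = 0.0491, 0.0317 and 0.0461). With flg22 WRKY6 was lower at 300 than at 180 min in all 3 experiments, with a difference of -0.79 ± 0.51 that did not pass (adjusted p = 0.531).

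**Figure D4:**
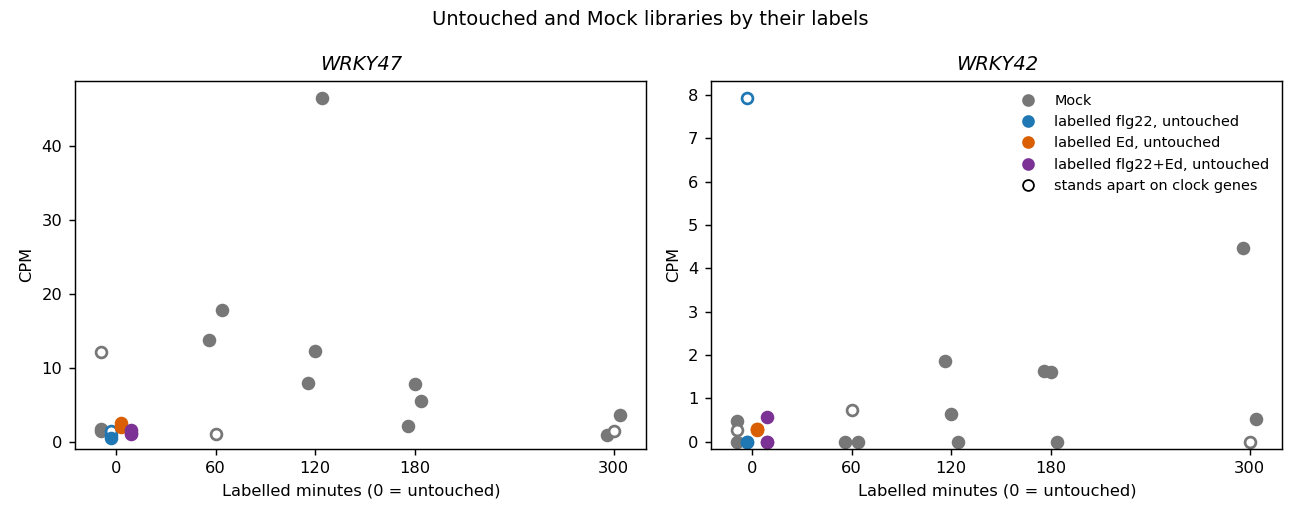
WRKY47 (left) and WRKY42 (right) in CPM (vertical axes) against the labelled minutes in untouched leaves (0) and Mock leaves; each point is 1 library and open points are the 4 libraries that stand apart on LHY. The open WRKY47 point at 0 min lies at 12.1 CPM and the one at 60 min at 1.08, and the open WRKY42 point at 0 min lies at 7.92 CPM.

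After infiltration with Mock alone, WRKY47 was called higher than in untouched leaves at 60 and 120 min. Mock leaves were also taken later than untouched leaves, so infiltration and time of day cannot be told apart in this comparison. The 12 untouched libraries had 0.512 to 12.1 CPM of WRKY47 with a median of 1.51. After 60 min of Mock the libraries had 13.8, 1.08 and 17.7 CPM, after 120 min 7.96, 12.2 and 46.5. They had 2.08, 7.85 and 5.47 after 180 min, then 0.838, 1.48 and 3.58 after 300 min. The highest untouched value and the lowest value at 60 min are both from libraries that stand apart, and the ranges overlapped at every time. WRKY47 was called higher at 60 min (2.44 ± 0.49 on the log2 scale, adjusted p = 0.000765) and at 120 min (3.41 ± 0.45, adjusted p = 4.16e-07), the only member called at either time, where 8.73 and 13.7% of all genes were called higher. The call at 60 min was lost with limma-voom (adjusted p = 0.0728), in a fit of only the groups compared (adjusted p = 0.171) and without the Mock library of experiment 3 (adjusted p = 0.0864). It was also lost without the whole of experiment 1 or 3 (adjusted p = 0.292 and 0.26).

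Leaving out the 4 libraries that stand apart raised the member calls in this comparison from 2 to 5. The 10 untouched libraries that remained had 0.512 to 2.50 CPM of WRKY47. In order of time the differences became 3.48 ± 0.47, 3.91 ± 0.41 and 1.91 ± 0.49, all called (adjusted p = 1.27e-07, 3.82e-10 and 0.00249), and 0.45 ± 0.76 in the last (adjusted p = 0.721). WRKY42 was then called for the last pair of times, with differences of 2.91 ± 1.01 and 3.99 ± 1.00 (adjusted p = 0.0267 and 0.00201), although at 300 min the 2 Mock libraries left had 4.40 and 0.498 CPM. With all libraries WRKY42 was not called at any time, and its untouched libraries ran from 0 to 7.92 CPM, or from 0 to 0.572 without the 2 that stand apart. WRKY6 in Mock was not called at any time (adjusted p between 0.0865 and 0.955), though DESeq2 called it at 120 min (1.22, adjusted p = 0.0478), where the experiment 3 library had 20.9 CPM and the others 3.45 and 3.00. With edgeR 0 members were called at 180 and 300 min with all libraries, where 8.75 and 4.49% of all genes were called higher, 1 had an unadjusted p under 0.05 at each, and DESeq2 called 1 and 0.

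The comparisons with Mock at 60 and 300 min kept their member calls without those libraries, each then against 2 Mock libraries. At 60 min the rise of WRKY6 was 3.63 ± 0.75 with flg22 and 3.71 ± 0.75 with both (adjusted p = 0.00255 and 0.00313), and that of WRKY47 with both was 2.10 ± 0.50 (adjusted p = 0.0114). At 300 min WRKY6 was higher by 4.64 with flg22, 4.43 with Ed and 5.32 with both, and WRKY47 by 6.17, 2.69 and 6.18 (adjusted p up to 0.00335 for WRKY47 with Ed). WRKY72, WRKY9 and WRKY31 were called with flg22 (adjusted p = 8.54e-07, 2.2e-05 and 0.0254) and with both (adjusted p = 1.47e-07, 6.11e-06 and 2.78e-05). WRKY42 differed by 0.67 ± 0.77 with flg22 and 0.52 ± 0.79 with Ed and was not called (adjusted p = 0.525 and 0.70). The interaction at 300 min was -3.75 ± 0.89 for WRKY6 and -2.68 ± 0.79 for WRKY47 (adjusted p = 0.0198 and 0.0774).

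Other WRKY genes also rose. Of the 56 in the table, 40 were tested, and 13, 15, 22 and 24 of them were called higher with flg22 at 60, 120, 180 and 300 min, 0, 0, 7 and 19 with Ed, and 14, 17, 23 and 30 with both. Of all genes, 19.2, 14.7 and 27.9% were called higher at 300 min with flg22, Ed and both, and the shares at the earlier times are those given above. WRKY36, a further group IIb gene that is not one of the 7, had 81 counts in all and was not tested. Of the 3 group IIa genes, WRKY60 and WRKY40 are named here after their values were seen. The mean of WRKY60 at 300 min was 2.81 ± 0.934 CPM in Mock, 173 ± 19.96 in flg22, 29.3 ± 13.9 in Ed and 178 ± 35.1 in flg22+Ed leaves, and it was lower in Ed than in flg22 leaves by -2.56 ± 0.42 (adjusted p = 1.52e-05). WRKY40 was higher in Ed than in flg22 leaves at 300 min, by 2.80 ± 0.75 (adjusted p = 0.00639), with 107 ± 19.0 against 15.4 ± 5.17 CPM. All 3 group IIa genes were called higher than Mock at 300 min with flg22, with Ed and with both.

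Genes reported as targets of these factors gave mixed values. Of 11 such genes 7 were tested, and at 300 min 2 were called higher and 1 lower with flg22, 2 and 0 with Ed, and 3 and 1 with both. Over all genes 19.2, 14.7 and 27.9% were called higher and 20.9, 9.46 and 30.5% lower. FRK1, a receptor kinase gene and a common marker of the flg22 response that WRKY6 is reported to activate, had 0.559, 0 and 0 CPM in Mock leaves at 300 min, 239, 354 and 223 in flg22, 16.8, 4.43 and 2.04 in Ed, and 319, 334 and 267 in flg22+Ed leaves. All treated libraries were above all Mock libraries, with a ratio from 2 Mock counts of 34.6 after Ed (counting interval 9.27 to 290.1, adjusted p = 6.91e-05) and of 1220.1 after flg22 (338 to 10079, adjusted p = 1.33e-12), and its interaction was -4.74 (adjusted p = 0.011). PHO1, a phosphate exporter gene that WRKY6 and WRKY42 are reported to repress, fell by -1.19 with flg22 and -1.23 with both (adjusted p = 0.0466 and 0.0325), and the difference with Ed was -0.54 (adjusted p = 0.44). SAG13, a senescence gene, had 0.357 ± 0.310 CPM in Mock, 3.34 ± 2.16 in flg22, 8.17 ± 4.61 in Ed and 27.6 ± 15.0 in flg22+Ed leaves, and was higher with both than with flg22 by 3.06 (adjusted p = 0.000699). The salicylic acid marker PR1 had 2 counts in all 60 libraries of this sid2 line.

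The 6 tested members were compared by their pattern over the 20 group means. Pearson correlations of log2 CPM, given as descriptions over 20 points that share libraries and Mock groups, were highest for WRKY72 with WRKY9 (0.897), WRKY6 with WRKY47 (0.895) and WRKY31 with WRKY42 (0.888), followed by WRKY9 with WRKY31 (0.856) and with WRKY42 (0.806), and lowest for WRKY42 with WRKY47 (0.423). Among 15274 other genes with at least 5 CPM in a group, those most like WRKY6 were AT3G15518, an uncharacterized protein (r = 0.989), AT1G72060, annotated as a serine-type endopeptidase inhibitor (0.986), and the kinase gene ARCK1 (0.984). Those most like WRKY47 were PMT6, a transporter of the major facilitator superfamily (0.988), the receptor-like kinase AT1G51790 (0.987) and the protease inhibitor AT2G38870 (0.986). For WRKY72 they were AT1G13550, the lipase-like AT2G36325 and the zinc transporter ZIP5 (0.988, 0.986 and 0.986), and for WRKY9 the peroxidase AT4G36430, the ankyrin repeat protein AT5G51160 and the aquaporin-like NIP3;1 (0.989, 0.985 and 0.984). For WRKY31 they were AT4G19970, a sugar transferase family protein, the lectin kinase AT3G45410 and AT3G13432 (0.973, 0.964 and 0.960). For WRKY42 they were NBR1, an autophagy receptor, APT1, an adenine phosphoribosyl transferase, and the kinase AT1G48210 (0.971, 0.944 and 0.941). These lists depend on the measure and are reported as likeness only.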

How the data were processed

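Smart-3SEQ libraries of 60 leaf samples were deposited as 1 table of raw counts for 25036 genes. The authors used bcl2fastq 2.17.1.14, STAR 2.4.2a and the TAIR10 build, per the submitters' processing notes. Per the labels' protocols, a read opens with a 5-base molecular identifier, within 8 bases that were trimmed. How reads were counted, with which annotation and strand, and whether identifiers were collapsed is not given in the sources. Counting intervals were taken on counts pooled over the libraries of each group. They cover counting error only and leave out the spread between libraries.

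The deposited counts were tested with edgeR 4.0.16 (R 4.3.3): filterByExpr left 16763 genes, totals were scaled by TMM (0.803 to 1.15), and glmQLFit and glmQLFTest ran in 1 fit of 60 libraries in 20 groups with 40 residual degrees of freedom. The 41 contrasts were each adjusted by Benjamini-Hochberg at 0.05. CPM uses scaled totals, and log2 CPM a prior count of 2. A group at 0 counts was set to a floor of 3 counts over the group. Folds over a floor pool the counts of the other group without their error, so they are not lower limits. Alternatives were DESeq2 1.42.0, limma-voom (limma 3.58.1), other scalings and filters, fits of only the groups compared, a replicate block, leaving out libraries or experiments, and leaving out the 4 libraries that stand apart.

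Replicate numbers name the independent experiments per the labels, which pairs the libraries. Deviations from the group means had a median correlation of 0.114 over 570 pairs of the same experiment and -0.0672 over 1140 of different ones. No 2 libraries were identical. All 7 members were named, and for each tested member the 3 genes with the most similar pattern. Members and lists were chosen with earlier results of these data known. Coordinates and sequences are from RefSeq TAIR10.1, and none was carried over from the authors' build. Symbols matched for 24888 genes.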

Additional observations from a re-analysis of the deposited data

Results flagged for a closer look

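On the log2 scale, the effect of Ed on WRKY6 at 300 min differed between leaves given flg22 and leaves not given it. The interaction term of edgeR was -3.84 (adjusted p = 0.00594). Mean levels were 4.22 CPM in Mock, 92.6 in Ed, 104 in flg22 and 170 ± 50.5 in flg22+Ed leaves. Whether the effects add in CPM was not tested. Ed leaves had 118, 78.6 and 80.6 CPM of WRKY6 and Mock leaves 2.23, 3.25 and 7.16, whereas flg22+Ed leaves had 162, 224 and 124 and flg22 leaves 80.0, 124 and 108. The term was negative in 3 of 3 experiments, but its call was lost without experiment 1 and without experiment 2. The Mock library with 3.25 CPM is one of the 4 that stand apart on LHY, and the call was kept without those libraries. At the same time the summed mesophyll markers ran from 30135 to 37003 CPM in Mock, 11273 to 20624 in flg22, 18733 to 26089 in Ed and 5180 to 7526 in flg22+Ed leaves, and their part in the result was not tested.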

How the results depend on the processing

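None of 246 member results (67 called) changed sign among called values under any alternative run. Counts of member calls that moved by over 1.5 times were these, others changing by less: flg22+Ed against flg22 (1) became 0 with a filter of 10 CPM, 0 with DESeq2, 2 with limma-voom and 3 with only the groups compared; the interaction (1) became 3 with only the groups compared; Mock against untouched (2) became 4 with DESeq2, 1 with limma-voom, 1 with only the groups compared and 5 without the 4 libraries that stand apart; time steps (6) became 14 with limma-voom and 11 without the 4 libraries. Of the 18 most similar genes, 8 were shared with a prior count of 0.5 and 1 with Spearman's rho. The cause of these shifts was not tested. Leaving out 1 library or experiment gave 11 to 15 calls for flg22 against Mock, 1 to 4 for Ed, 12 to 16 for both, 0 to 1 for both against flg22, 10 to 13 for both against Ed, 9 to 12 for Ed against flg22, 0 to 2 for the interaction, 1 to 4 for Mock against untouched and 0 to 7 for time steps. With the replicate block, time steps gave 8 calls and the other counts of member calls did not change. Counts over all genes moved more than 1.5 times in several comparisons, these among them: flg22 against Mock at 60 min gave 1650 calls, 20 with only the groups compared and 407 to 2234 with 1 library left out; Ed against Mock at 180 min gave 676, and 0 without experiment 1; Mock against untouched at 60 min gave 1585, 0 with only the groups compared and 5859 without the 4 libraries. Library totals without scaling shifted the median of all genes by up to 0.333 (log2). WRKY31, WRKY42, WRKY61 and WRKY9 rest on few counts, and low levels in Mock leaves were near the limit of depth.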
